A study of Mus musculus with 16 samples.

Results

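The genes described here are the chromosomal neighbours of Tnfrsf1b, 1 of the 2 receptor genes named in the knockout label of this mouse skin study. They are the genes on mouse chromosome 4 whose annotated start lies within 5 Mb of the start of Tnfrsf1b, leaving out symbols that begin with Tnfrsf or Padi, so they were chosen by position and not by any measured value. There are 315 such genes among the 55359 gene IDs of the count tables: 145 protein-coding genes, 101 pseudogenes and 69 of other types. Of these, 110 had enough reads to be tested, 95 of them protein-coding. Among the 205 that were not tested, 98 had no read in any library and 107 had a few, with a highest mean of 5.44 reads per library.

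The RNA came from dorsal skin of males aged 8 weeks, and the labels give the skin as telogen, when hair follicles rest. The 4 groups held 4 libraries each: wild type without UVB (WT control), wild type after the treatment labelled 3xUVB (WT UVB), mice labelled Tnfrsf1a/b KO without UVB (KO control) and the same genotype after 3xUVB (KO UVB). Poly(A)-enriched, strand-specific libraries held between 15644375 and 23200649 reads in genes. The sources used here give neither the targeting alleles, nor the strain from which they came, nor the breeding of the WT animals, nor the UVB dose. No label ties the libraries to individual animals, and p-values therefore reflect variation among libraries that may be technical.

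Tnfrsf1a and Tnfrsf1b encode TNFR1 and TNFR2, the receptors of tumour necrosis factor. In the mouse, Tnfrsf1b lies on chromosome 4 in a stretch that also holds a cluster of arylacetamide deacetylase-like (Aadacl) genes, which encode predicted membrane-bound ester hydrolases, and a large cluster of zinc finger genes, many of which encode DNA-binding repressors with a KRAB domain. Beyond them lie metabolic, mitochondrial and signalling genes such as Mfn2 and Mtor. A targeted allele is inherited together with a stretch of the chromosome around it, so in the KO libraries the receptor allele and any linked difference in sequence come with the same animals and cannot be told apart in this design.

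Of the Aadacl genes called between genotypes, which differed in opposite directions, the promoters of the 4 with an entry in the RefSeq table are shown here. The sequences are those of the reference genome, not of these mice, and their relation to the genotype differences was not tested. Each is 250 bases before to 50 bases after the RefSeq start (build GRCm38.p6, chromosome 4, written in the direction of transcription). Capitals mark matches to the searched motifs on either strand. RefSeq names Gm436 Aadacl4fm4, Gm13178 AAdacl4fm3 and 9430007A20Rik Aadacl4fm1.
Gm436: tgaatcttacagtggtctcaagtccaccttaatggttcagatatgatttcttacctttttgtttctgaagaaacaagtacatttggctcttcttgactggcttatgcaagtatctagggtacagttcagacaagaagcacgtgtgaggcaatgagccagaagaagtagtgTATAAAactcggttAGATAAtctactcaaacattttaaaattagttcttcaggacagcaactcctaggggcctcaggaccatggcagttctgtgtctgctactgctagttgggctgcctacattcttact
Gm13178: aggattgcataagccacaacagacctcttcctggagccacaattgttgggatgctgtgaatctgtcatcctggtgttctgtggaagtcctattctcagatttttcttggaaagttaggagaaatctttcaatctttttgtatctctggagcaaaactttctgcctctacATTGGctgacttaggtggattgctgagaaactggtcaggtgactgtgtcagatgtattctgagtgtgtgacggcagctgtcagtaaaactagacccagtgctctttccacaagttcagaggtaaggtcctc
Aadacl4: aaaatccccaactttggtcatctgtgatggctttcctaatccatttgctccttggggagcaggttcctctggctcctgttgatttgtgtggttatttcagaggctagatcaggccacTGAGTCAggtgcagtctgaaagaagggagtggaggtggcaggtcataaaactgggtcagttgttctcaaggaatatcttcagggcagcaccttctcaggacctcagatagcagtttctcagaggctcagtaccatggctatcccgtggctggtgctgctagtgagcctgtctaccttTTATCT
9430007A20Rik: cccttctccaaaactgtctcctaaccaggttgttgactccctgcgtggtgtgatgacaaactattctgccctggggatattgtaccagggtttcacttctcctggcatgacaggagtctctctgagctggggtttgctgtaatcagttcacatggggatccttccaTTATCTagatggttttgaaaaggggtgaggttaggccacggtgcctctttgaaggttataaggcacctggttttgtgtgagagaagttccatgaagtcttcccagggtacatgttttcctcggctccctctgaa

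These windows lie at chr4:144686319-144686618 (minus strand) for Gm436, chr4:144721443-144721742 (minus) for Gm13178, chr4:144613457-144613756 (plus) for Aadacl4 and chr4:144519572-144519871 (plus) for 9430007A20Rik. Tnfrsf1b itself spans chr4:145213463-145246870 in the GRCm38 gene annotation. The search covered 5 motifs on both strands, and no match overlapped another in these windows. The TATA box letters TATAAA, present in 13.6% of the 32851 RefSeq promoter windows of the same length, occurred only in Gm436, at -80 from its annotated start. The AP-1 letters TGAGTCA (5.2% of windows) occurred only in Aadacl4. The GATA factor letters AGATAA (11.2% of windows) occurred in Gm436, Aadacl4 and 9430007A20Rik, and CCAAT (37.4%) only in Gm13178. None held the GC box GGGCGG, which 35.7% of windows hold. Identity between pairs of these promoters was 57.9% to 69.3% over aligned bases. RefSeq entries were found for 22 of the 23 members called in either genotype comparison and promoter windows for 17.

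Both targeted genes were lower in the KO libraries but not absent from them, and counts per gene do not show which part of a gene an allele removes. Tnfrsf1b stood at 69.1, 69.6, 48.3 and 44.4 CPM (read counts scaled to a common library size) in the 4 WT control libraries and at 23.7, 24.9, 18.1 and 16.4 in the KO control libraries. After UVB it stood at 51.7, 33.6, 41.7 and 36.3 CPM in WT and at 16.7, 15.6, 27.9 and 20.04 in KO. The groups did not overlap in either comparison, with log2 fold changes (KO over WT, ± standard error) of -1.47 ± 0.21 without UVB (edgeR adjusted p = 0.00206) and -1.02 ± 0.21 after UVB (edgeR adjusted p = 0.0315). Tnfrsf1a, on chromosome 6, ranged from 133 to 162 CPM in the 8 WT libraries and from 82.2 to 105 in the 8 KO libraries.

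Without UVB, 21 of the 110 tested neighbours of Tnfrsf1b differed between KO and WT at an adjusted p under 0.05, 8 higher and 13 lower in KO. That is 19.1% of them, while 1.69% of all 17531 tested genes were called, 0.416% higher and 1.28% lower. The KO and WT libraries did not overlap at all for 34 members (30.9%, against 7.68% of all genes). After UVB, 19 of 110 were called, 8 higher and 11 lower (17.3%, against 0.856% of all genes, 0.496% higher and 0.359% lower), and 35 did not overlap (31.8%, against 8.16%). The members did not shift as a group: their median log2 fold change was 0.01 without UVB and -0.07 after it. The size of the change in either direction was larger than in the rest of the genes. The median absolute log2 fold change was 0.22 for members and 0.12 for the rest without UVB, and 0.29 and 0.15 after UVB. The 155 tested genes within 5 Mb of Tnfrsf1a, on chromosome 6, lay between these, at 0.17 without UVB and 0.21 after it. A median above that of the rest was thus not particular to the members. A gene high in only 1 genotype can enter the test through that genotype alone, and among the 96 members that reached the expression minimum in both genotypes 15 were called without UVB and 13 after it.

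The genotype comparisons with and without UVB share no library, but both come from the same fit with a shared estimate of the spread. No label shows whether their libraries come from different animals. The same direction was called in both for 17 members (7 higher, 10 lower), which is 81.0% of the calls without UVB and 89.5% of those after UVB. Over all tested genes, 43 of 17531 (0.245%) were called in both in this way. Among tested genes other than these members and the 2 receptor genes, the shared calls came to 8.76% of those without UVB and 18.6% of those after UVB. All 8 KO libraries lay on one side of all 8 WT libraries for 22 members, and for 57 of all 17531 genes (0.325%). Across the 110 members the 2 sets of log2 fold changes had a Pearson correlation of 0.93, given as a description over genes that share the same libraries and depth. Across the other genes it was 0.39. The same sign was seen in 70 of 110 members (63.6%) and in 49.6% of other genes, so the likeness lay in the members that moved. Of the 17, 5 (Zfp990, Znf41-ps, Zfp982, Masp2 and 9430007A20Rik) entered the test through the genotype in which they are high. Among the 97 tested members not admitted in that way, 12 were called in both, 13 did not overlap across the 16 libraries, and the correlation was 0.89. The 87 members called in neither comparison had the same sign in 47 cases, and 73 of them stayed within 1.5-fold in both.

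**Figure D1:**
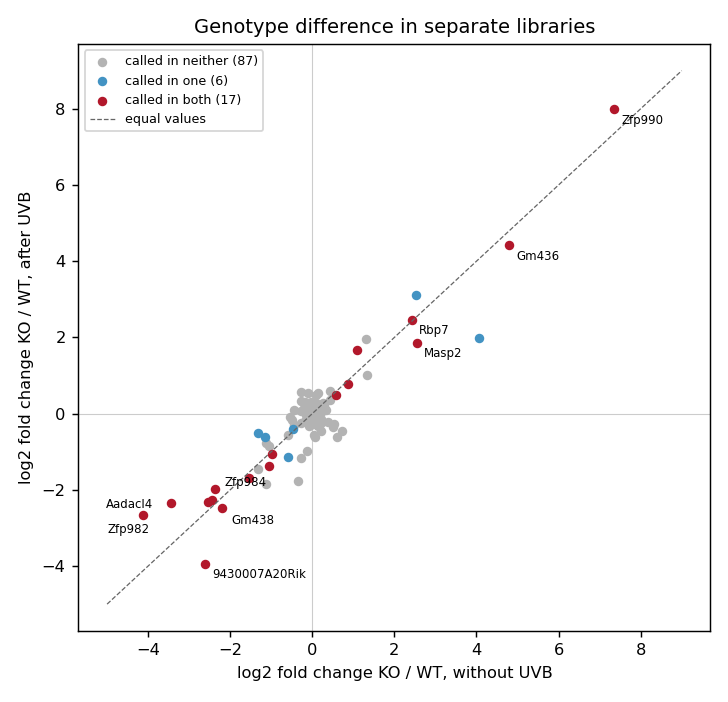
Log2 fold change of KO over WT for the 110 tested members without UVB (x axis) and after UVB (y axis), 4 libraries per group; points are coloured by whether they were called at an adjusted p under 0.05 in both, 1 or neither comparison, and the dashed line marks equal values. The 17 genes called in both lie near the line in the upper right and lower left, from Zfp990 at the top to 9430007A20Rik at the bottom, and the 87 uncalled genes lie around 0.

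The called members were not spread evenly over the window. Every one of the 23 called in either comparison started between -0.795 Mb (1700012P22Rik) and 4.97 Mb (Car6) from Tnfrsf1b, where negative distances are at lower coordinates. That stretch, which is bounded by the outermost calls, held 74 tested members. The remaining 36 tested members, all at lower coordinates, held no call in edgeR in either comparison, although 3 without UVB and 5 after it had an unadjusted p under 0.05. In the same 36, DESeq2 called 0 and 3, and limma voom 2 and 3. Distances come from GRCm38, whereas the counts were made on GRCm39.

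In steps of 1 Mb, 6 of 13 tested genes were called without UVB, and 5 after it, just below Tnfrsf1b (-1 to 0 Mb), and 2 of 3 in both comparisons just above it (0 to 1 Mb). Between 2 and 3 Mb 8 of 20 were called in each comparison, between 3 and 4 Mb 2 of 17, and between 4 and 5 Mb 2 of 16 without UVB and 1 after it. From 5 to 10 Mb at higher coordinates, outside the window, 3 and 4 of 46 tested genes were called, and at lower coordinates 1 and 1 of 71. On the other chromosomes the shares were 1.54% and 0.694%. At the edges of the window, Arhgef10l at -4.70 Mb (0.32 ± 0.10, edgeR adjusted p = 0.174 without UVB) was the first tested member inside and Igsf21 at -5.19 Mb (0.07 ± 0.50) the first outside. At the other edge Car6 at 4.97 Mb (-1.32 ± 0.29, edgeR adjusted p = 0.0312) lay inside and Eno1 at 5.02 Mb (-0.56 ± 0.15, edgeR adjusted p = 0.0912) outside. For comparison, the 155 tested genes within 5 Mb of Tnfrsf1a, chosen by the same rule of distance on chromosome 6, held no edgeR call in either comparison. Of these, 10 without UVB and 25 after it had an unadjusted p under 0.05, DESeq2 called 0 and 1, and limma voom 0 and 8.

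**Figure D2:**
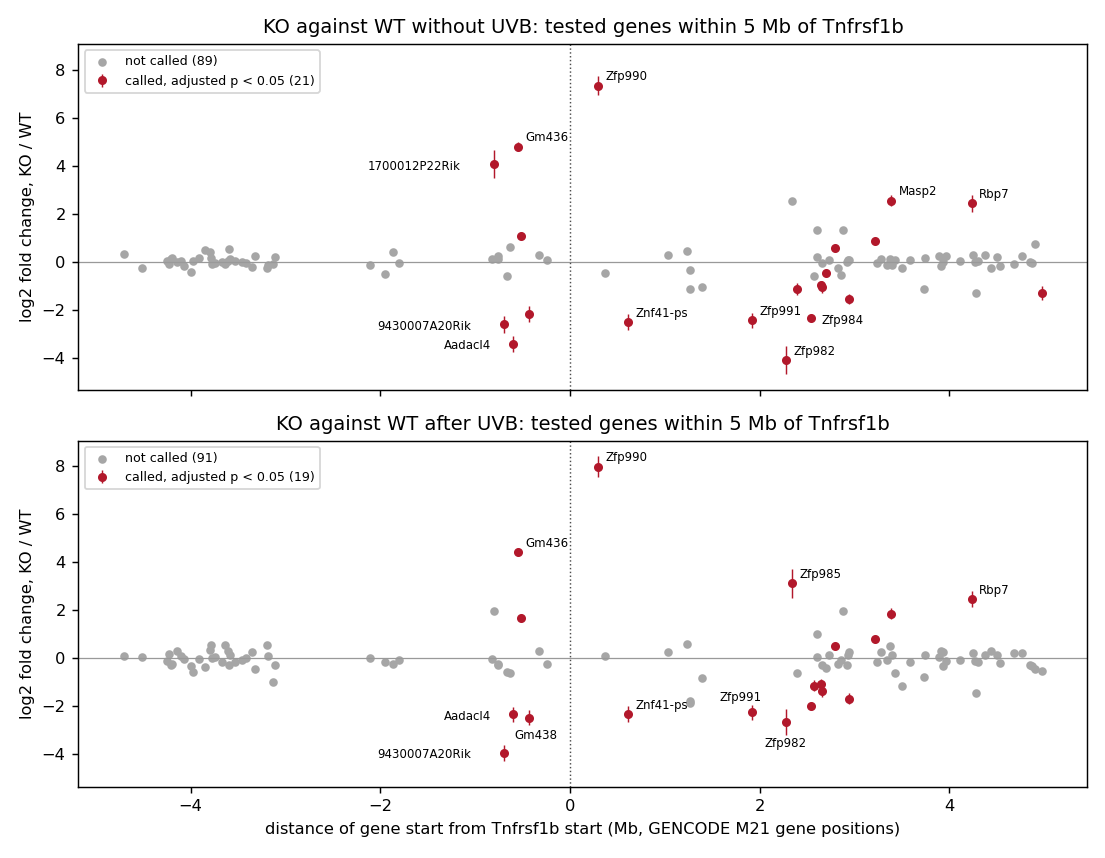
Log2 fold change of KO over WT (y axis) against the distance of each gene's start from that of Tnfrsf1b in Mb (x axis, GRCm38 positions), without UVB above and after UVB below; red points with standard error bars are members called at an adjusted p under 0.05 and grey points are not called. The 21 and 19 called genes all lie at -0.795 Mb or higher, and all points at lower coordinates than that are grey.

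**Figure D3:**
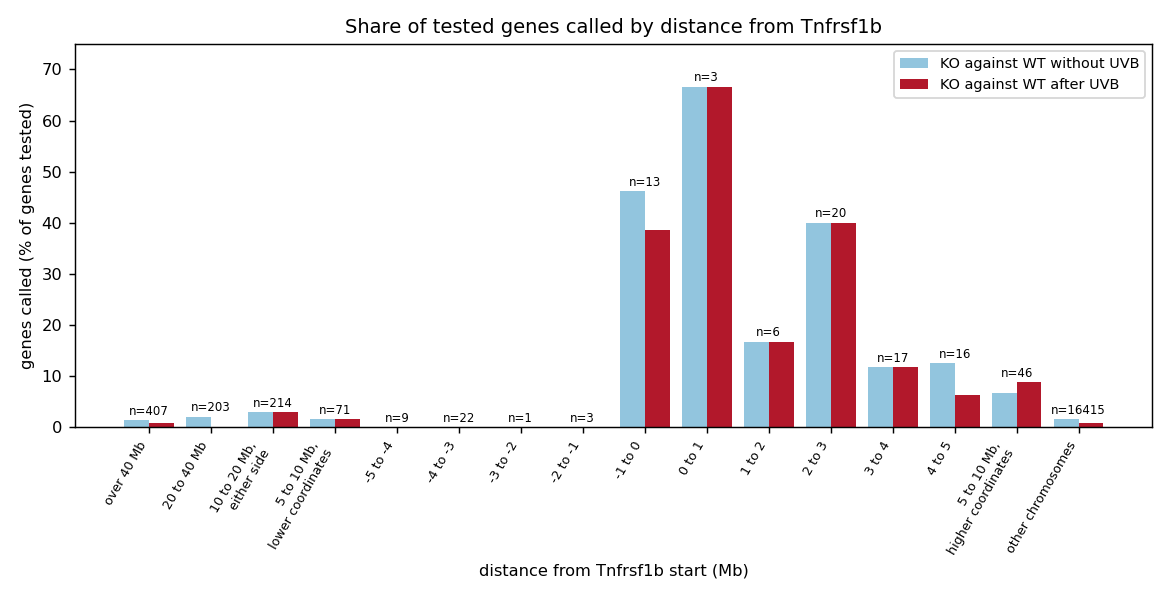
Percentage of tested genes called in KO against WT (y axis, bars from 0) by distance from Tnfrsf1b (x axis), without UVB in blue and after UVB in red, with the number of tested genes above each pair of bars. The bins from -1 to 3 Mb reach 16.7% to 66.7% without UVB, and those below -1 Mb within the window hold no call.

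The Aadacl cluster held several of the largest differences, in both directions. Of its 7 tested genes, a family grouping made after their values were seen, 2 were higher and 3 lower in KO, the same 5 genes in the same directions with and without UVB. Gm436 had few reads in WT and many in KO. Its levels were 1.97, 1.92, 1.75 and 1.75 CPM in WT control and 59.6, 40.6, 47.6 and 58.2 CPM in KO control. After UVB they were 2.91, 3.56, 3.15 and 4.0 CPM in WT and 94.1, 64.1, 68.8 and 64.3 CPM in KO. The lowest KO library, at 40.6 CPM, lay far above the highest WT library, at 4.0 CPM. The log2 fold change was 4.80 ± 0.17 without UVB (edgeR adjusted p = 1.72e-10) and 4.42 ± 0.16 after it (edgeR adjusted p = 2.68e-10).

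Gm13178, the next gene of the cluster, was also higher in KO, by a smaller factor. It stood at 28.03, 21.3, 34.7 and 30.0 CPM in WT control and 70.2, 47.9, 65.2 and 59.95 CPM in KO control. After UVB the values were 26.9, 37.8, 30.7 and 42.0 CPM in WT and 127, 111, 100 and 96.3 CPM in KO. Neither comparison showed overlap, and the log2 fold changes were 1.09 ± 0.16 (edgeR adjusted p = 0.00283) and 1.66 ± 0.17 (edgeR adjusted p = 7.66e-05).

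Aadacl4 moved the other way. WT control libraries held 78.4, 82.0, 204 and 153 CPM, and KO control libraries 12.1, 11.6, 12.3 and 11.8 CPM. After UVB, WT libraries held 179, 216, 155 and 238 CPM and KO libraries 53.7, 47.2, 30.1 and 24.4 CPM. The spread was wide in WT control and very narrow in KO control, and no KO library reached the lowest WT library. Its log2 fold change was -3.44 ± 0.32 without UVB (edgeR adjusted p = 3.93e-05) and -2.34 ± 0.30 after it (edgeR adjusted p = 0.000886).

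Gm438, named Aadacl4fm5 in RefSeq, and 9430007A20Rik were lower in KO as well. Gm438 ranged from 12.3 to 24.2 CPM in WT control and from 2.33 to 4.26 CPM in KO control. After UVB it ranged from 23.7 to 41.2 CPM in WT and from 2.73 to 9.51 CPM in KO, with log2 fold changes of -2.20 ± 0.33 (edgeR adjusted p = 0.00287) and -2.48 ± 0.33 (edgeR adjusted p = 0.0011). The sparsely read 9430007A20Rik, named here after its values were seen, ranged from 0.670 to 1.18 CPM in WT control and from 0.0848 to 0.243 CPM in KO control. It rose with UVB in WT to between 1.70 and 3.56 CPM and lay between 0.114 and 0.182 CPM in KO after UVB. Its log2 fold change was -2.62 ± 0.36 without UVB (edgeR adjusted p = 0.0015) and -3.95 ± 0.34 after it (edgeR adjusted p = 1.28e-05).

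The other 2 genes of the cluster were not called between genotypes. Aadacl3 ranged from 9.11 to 17.04 CPM in WT control and from 11.8 to 16.1 CPM in KO control (log2 fold change 0.10 ± 0.37), and after UVB from 29.3 to 69.5 CPM in WT and 14.9 to 56.5 CPM in KO (-0.27 ± 0.36). Gm13124, named Aadacl4fm2 in RefSeq, gave -0.59 ± 0.34 without UVB (edgeR adjusted p = 0.602) and -0.56 ± 0.34 after it (edgeR adjusted p = 0.425). Genes that changed thus lay between and beside genes of the same family that were not called.

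The makeup of the family's reads therefore differed between genotypes more than its total did. Summed over the 7 genes, the level was 217 ± 84.0 CPM in WT control and 160 ± 16 CPM in KO control (SD, n = 4), and the 2 ranges overlapped. Aadacl4 made up 50.6% to 63.4% of that sum in WT control libraries and 6.70% to 8.10% in KO control libraries. Gm436 made up 0.538% to 1.32% in WT control and 28.3% to 38.2% in KO control, and Gm13178 10.7% to 18.1% and 33.4% to 40.3%. After UVB, Aadacl4 held 49.9% to 55.5% in WT and 10.9% to 14.5% in KO. These shares are of CPM, not corrected for transcript length. Transcripts of the 7 genes were 58.9% to 77.6% identical in pairs, and none shared an exact stretch of 50 bases with another gene's transcripts. These are reference sequences, not those of these mice, and the read length is not given. Whether reads were assigned to the wrong gene of the family was not tested.

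**Figure D4:**
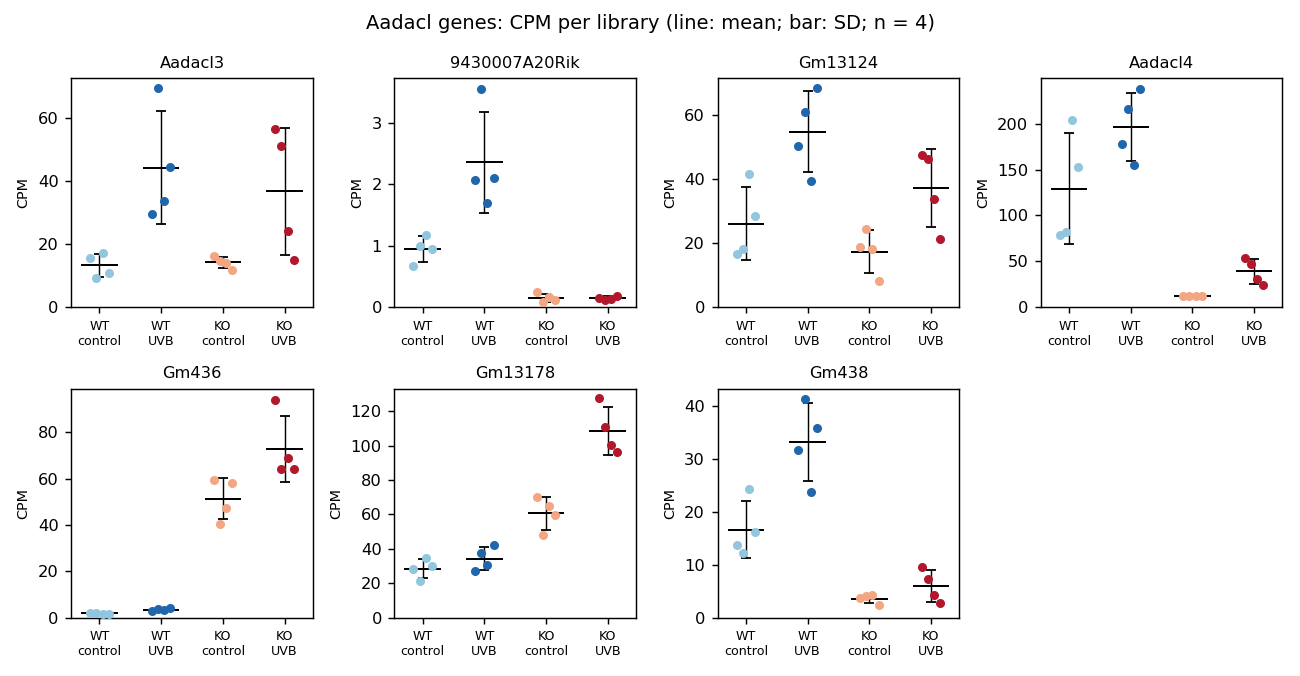
CPM (y axis, from 0, a separate scale for each gene) of the 7 tested Aadacl genes in each library of the 4 groups (x axis); points are libraries, lines means and bars SD, n = 4. Aadacl4, Gm438 and 9430007A20Rik sit lower in both KO groups, Gm436 and Gm13178 sit higher, and Aadacl3 and Gm13124 overlap between genotypes.

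Of the 7 Aadacl genes, 5 also rose after UVB in WT and 5 of 7 in KO, and none fell, while 10.2% of all tested genes rose in WT and 17.2% in KO. In WT the risers were Aadacl3 (log2 fold change 1.74 ± 0.37, edgeR adjusted p = 0.00469), 9430007A20Rik (1.32 ± 0.27, edgeR adjusted p = 0.00325), Gm13124, Gm438 and Gm436. In KO they were Aadacl4 (1.70 ± 0.31, edgeR adjusted p = 0.00095), Aadacl3 (1.37 ± 0.37, edgeR adjusted p = 0.0108), Gm13178, Gm13124 and Gm436. Aadacl4 gave 0.61 ± 0.29 in WT (edgeR adjusted p = 0.153), but its UVB response was not shown to differ between genotypes (interaction 1.1 ± 0.41, edgeR adjusted p = 0.29). The UVB and genotype comparisons share libraries, so these values only stand side by side.

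1700012P22Rik, a gene of unknown function at the outer end of the Aadacl cluster and named after its values were seen, was near its detection limit in WT. It reached the expression minimum for the test only in KO, the genotype in which it is high. It stood at 0.179, 0.0620, 0 and 0 CPM in WT control and at 0.826, 1.27, 1.22 and 1.05 CPM in KO control (log2 fold change 4.06 ± 0.58, edgeR adjusted p = 0.00201). After UVB the libraries again did not overlap, at 0.138 to 0.500 CPM in WT and 0.877 to 1.59 CPM in KO, but the change did not pass the threshold (1.99 ± 0.45, edgeR adjusted p = 0.0503). DESeq2 and limma voom called it (adjusted p = 0.0013 and 0.01), as did 9 of 25 alternatives in all.

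Between the Aadacl cluster and Tnfrsf1b lay tested genes that were not called. Dhrs3, which encodes a retinaldehyde reductase, gave 0.26 ± 0.09 without UVB and 0.29 ± 0.09 after it (edgeR adjusted p = 0.263 and 0.144). After UVB its libraries did not overlap, at 49.9 to 57.6 CPM in WT and 59.9 to 71.8 CPM in KO. Vps13d, which encodes a lipid transfer protein of mitochondria and peroxisomes and starts at -0.241 Mb, gave 0.05 ± 0.11 and -0.23 ± 0.11, with KO values between 97.9 and 159 CPM and WT values between 121 and 157 CPM. The nearest tested member with a start at higher coordinates, Zfp990 at 0.297 Mb, had the largest log2 fold change of the tested members in both comparisons, and it reached the expression minimum for the test only in KO. Only 2 reads in 4 WT control libraries mapped to it, against 396 in the 4 KO control libraries, a depth-scaled ratio of 205 (95% counting interval 56.3 to 1696). After UVB there was 1 read in WT and 382 in KO, a ratio of 383 (68.3 to 15155). Those intervals cover counting error only. The KO levels were 4.37 to 5.51 CPM without UVB and 3.93 to 5.51 CPM after it, and the edgeR adjusted p values were 4.39e-08 and 4.2e-08.

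Zfp990 belongs to the zinc finger genes of the window, taken here as symbols starting with Zfp, of which 9 of 18 were tested. Without UVB 1 was higher and 4 were lower in KO, and after UVB 2 were higher and 3 lower. For scale, 1.69% of all tested genes were called without UVB and 0.856% after it. The median log2 fold change of the 9 was -1.05 without UVB and -0.62 after it, beside medians of 0.01 and -0.07 over all members. Zfp990 and Zfp985 reached the expression minimum for the test only in KO, and Zfp982 only in WT. These counts and medians therefore rest in part on genes admitted through the genotype in which they are high. Zfp984 had the most reads of those called. It stood at 16.2, 14.6, 13.6 and 12.3 CPM in WT control and 2.72, 2.59, 2.93 and 2.77 CPM in KO control. After UVB the values were 14.4, 11.0, 10.7 and 15 CPM in WT and 2.54, 3.94, 3.60 and 2.82 CPM in KO. All KO libraries lay below all WT libraries (-2.36 ± 0.16, edgeR adjusted p = 7.2e-07, and -1.99 ± 0.16, edgeR adjusted p = 5.43e-06).

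Zfp991 and the pseudogene Znf41-ps gave nearly the same pattern. Zfp991 ranged from 2.88 to 4.89 CPM over the 8 WT libraries and from 0.448 to 1.54 CPM over the 8 KO libraries (-2.45 ± 0.32, edgeR adjusted p = 0.000877 without UVB, and -2.26 ± 0.31, edgeR adjusted p = 0.00121 after it). Znf41-ps ranged from 2.45 to 3.41 CPM in WT and from 0.243 to 0.943 CPM in KO (-2.54 ± 0.34, edgeR adjusted p = 0.00114, and -2.33 ± 0.33, edgeR adjusted p = 0.00169). These 2 share most of their sequence: 82.2% of the 50-base stretches of Zfp991 also occur in other genes, mostly in Znf41-ps, and 89.6% of those of Znf41-ps, mostly in Zfp991. Their values are therefore uncertain as separate measurements and may count as 1 observation.

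Sequence sharing also touches the other zinc finger genes. The shared part was 54.5% for Zfp984 (mostly with Gm13212), 29.1% for Zfp990 (Zfp987), 26.7% for Zfp979 (Zfp600), 15.9% for Zfp985 (Zfp988) and 11.9% for Zfp982 (Gm13147). Gm13212 itself was not called (-0.46 ± 0.29 and 0.09 ± 0.29). The deposited tables list 0 multimapping reads, and the sources used here do not say how the authors treated reads that fit several genes, so the counts of these genes are uncertain.

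Zfp982 ranged from 0.664 to 1.67 CPM in WT and from 0 to 0.273 CPM in KO (-4.12 ± 0.59, edgeR adjusted p = 0.00204 without UVB, and -2.66 ± 0.54, edgeR adjusted p = 0.0313 after it). The call after UVB was lost when any of WT UVB 1, 2, 3 or 4 or KO UVB 2 or 3 was left out, with edgeR adjusted p between 0.0514 and 0.0872 in those fits. Zfp985 was higher in KO, at 0 to 0.185 CPM in WT and 0.266 to 0.923 CPM in KO, and was called only after UVB (3.12 ± 0.62, edgeR adjusted p = 0.0272, against 2.53 ± 0.65, edgeR adjusted p = 0.0663 without UVB). That call was lost without WT UVB 2, 3 or 4 or KO UVB 2 or 3 (edgeR adjusted p = 0.0548 to 0.1). Zfp979 was called only without UVB (-1.14 ± 0.27, edgeR adjusted p = 0.0394) and not after it (-0.62 ± 0.26, edgeR adjusted p = 0.245). It was lost in 7 of 16 fits with 1 library left out (without WT control 2, 3 or 4 or any KO control library, edgeR adjusted p = 0.067 to 0.115). Gm20707, whose span overlaps that of Zfp984 by 27470 bases on the same strand, was called only after UVB (-1.14 ± 0.23, edgeR adjusted p = 0.0315) and was lost without WT UVB 1, 2 or 4 or KO UVB 3 (edgeR adjusted p = 0.0813 to 0.0956).

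Past the zinc finger genes, between 2 and 5 Mb, lay called genes with known roles and mostly unshared sequence. Rbp7, which encodes a cellular retinoid-binding protein, and Masp2 had the largest rises among them. WT control libraries held 0.939, 2.48, 1.66 and 1.84 CPM and KO control libraries 11.6, 11.4, 6.34 and 7.38 CPM. After UVB, WT libraries held 1.66, 2.18, 3.00 and 3.61 CPM and KO libraries 18.6, 19.8, 8.26 and 11.0 CPM. The highest WT library was below the lowest KO library (2.43 ± 0.35, edgeR adjusted p = 0.00222, and 2.46 ± 0.34, edgeR adjusted p = 0.00153).

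Masp2, the mannan-binding lectin serine protease 2 of the complement system, had few reads. It stood at 0.402, 0.248, 0.437 and 0.314 CPM in WT control and at 2.19, 2.46, 1.92 and 1.83 CPM in KO control. After UVB it ranged from 0.339 to 0.569 CPM in WT and from 1.48 to 1.78 CPM in KO (log2 fold changes 2.54 ± 0.22, edgeR adjusted p = 1.41e-05, and 1.86 ± 0.22, edgeR adjusted p = 0.000417). Masp2 overlaps Tardbp on the opposite strand over 3118 bases, and without strand information the call after UVB was lost (1.43, edgeR adjusted p = 0.0749).

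Clcn6, a chloride-proton exchanger of late endosomes, showed the smallest change among the members called in both comparisons. It ranged from 21.9 to 25.3 CPM in WT control and from 32.5 to 38.2 CPM in KO control (0.57 ± 0.10, edgeR adjusted p = 0.00515). After UVB it ranged from 19.2 to 22.01 CPM in WT and from 25.2 to 34.4 CPM in KO (0.50 ± 0.10, edgeR adjusted p = 0.0254), a call lost without WT UVB 2 or 4 or KO UVB 3 (edgeR adjusted p = 0.0589 to 0.0837).

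Fbxo44, Miip and Fv1 were lower in KO in both comparisons. Fbxo44, which encodes a substrate-binding subunit of a ubiquitin ligase, stood at 4.16, 5.21, 3.10 and 4.88 CPM in WT control and 1.36, 1.57, 1.54 and 1.44 CPM in KO control. After UVB it ranged from 3.00 to 3.89 CPM in WT and from 0.856 to 1.59 CPM in KO (-1.54 ± 0.21, edgeR adjusted p = 0.00119, and -1.68 ± 0.21, edgeR adjusted p = 0.000812). Miip, the migration and invasion inhibitory protein, ranged from 16.1 to 19.7 CPM over the 8 WT libraries and from 5.08 to 11.2 CPM over the 8 KO libraries. Its log2 fold changes were -0.99 ± 0.17 (edgeR adjusted p = 0.00709) and -1.06 ± 0.17 (edgeR adjusted p = 0.00802), and the call after UVB was lost with only the compared groups in the fit (edgeR adjusted p = 0.0941). Thus both genes were divided between genotypes with no overlap across all 16 libraries.

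Fv1, a retroviral restriction gene derived from an endogenous retrovirus, starts at 2.66 Mb, next to Miip at 2.65 Mb. It stood at 6.08, 6.26, 8.70 and 6.54 CPM in WT control and 4.13, 2.75, 4.53 and 1.83 CPM in KO control. After UVB it ranged from 5.09 to 6.33 CPM in WT and from 1.54 to 2.59 CPM in KO. The 8 KO libraries all lay below the 8 WT libraries (-1.06 ± 0.23, edgeR adjusted p = 0.0268 without UVB, and -1.38 ± 0.24, edgeR adjusted p = 0.0121 after it). The call without UVB was lost when any WT control library or KO control 2 or 4 was left out (edgeR adjusted p = 0.0547 to 0.0854).

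Plod1 and Car6 were called by edgeR only without UVB. Plod1, the lysyl hydroxylase 1 of collagen, overlapped between genotypes without UVB. It ranged from 88.4 to 128 CPM in WT control and from 73.5 to 90.8 CPM in KO control (-0.46 ± 0.11, edgeR adjusted p = 0.0383). After UVB it ranged from 79.0 to 96.8 CPM in WT and from 62.1 to 74.6 CPM in KO, without overlap. The change was -0.40 ± 0.11 (edgeR adjusted p = 0.0827), and DESeq2 and limma voom called it (adjusted p = 0.024 and 0.0327). Car6, a secreted carbonic anhydrase, ranged from 9.05 to 14.1 CPM in WT control and from 4.63 to 5.64 CPM in KO control, and after UVB from 3.92 to 8.82 CPM in WT and from 1.99 to 6.77 CPM in KO (-0.51 ± 0.30, edgeR adjusted p = 0.411). Both calls depended on single libraries: Plod1 was lost without WT control 1, 2 or 3 or KO control 2, 3 or 4 (edgeR adjusted p = 0.0858 to 0.122), and Car6 without WT control 1, 2 or 3 or any KO control library (edgeR adjusted p = 0.0711 to 0.1).

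**Figure D5:**
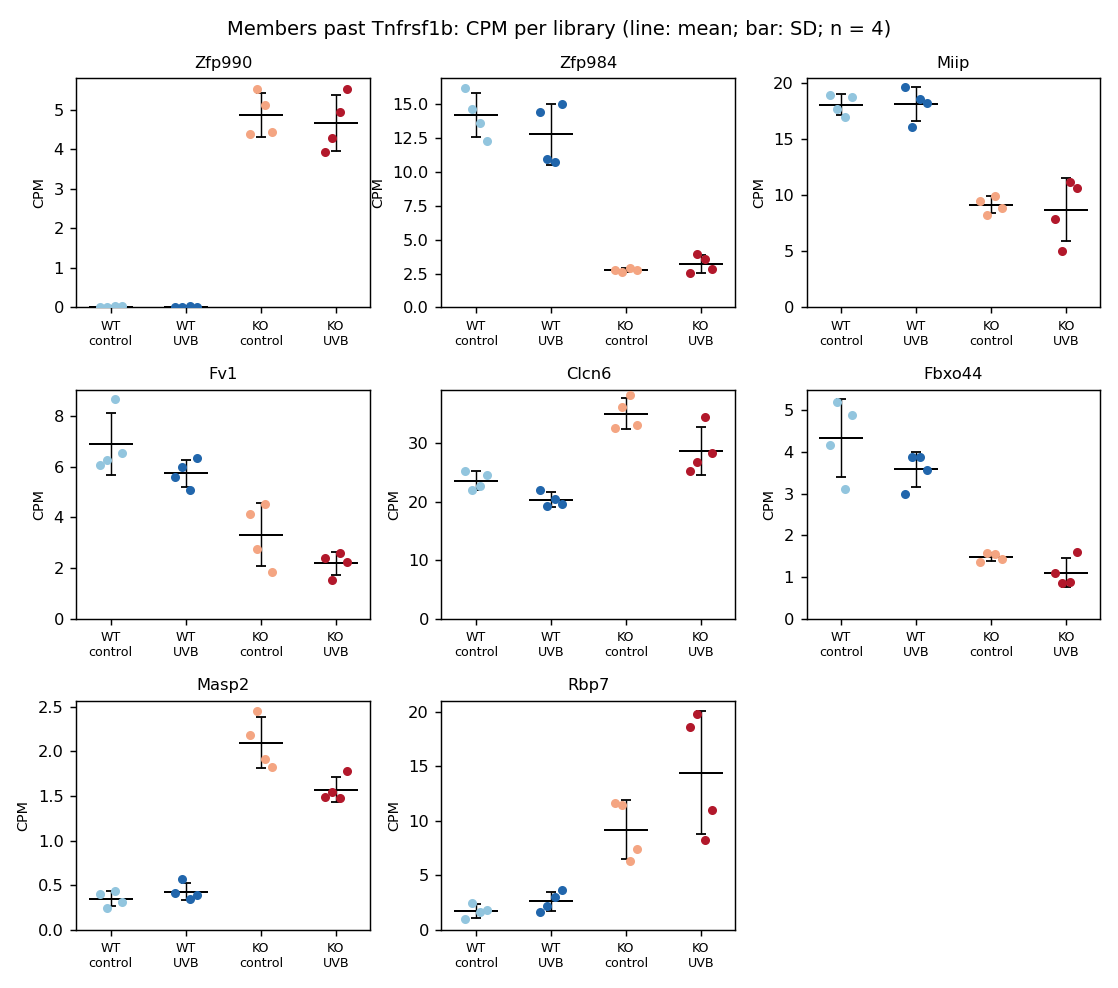
CPM (y axis, from 0, a separate scale for each gene) of 8 members at higher coordinates than Tnfrsf1b in each library of the 4 groups (x axis); points are libraries, lines means and bars SD, n = 4. Zfp990, Clcn6, Masp2 and Rbp7 are higher and Zfp984, Miip, Fv1 and Fbxo44 lower in KO. Clcn6 is the only panel in which the genotypes overlap when all 16 libraries are compared (lowest KO 25.2 CPM, highest WT 25.3 CPM).

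Outside the Aadacl and zinc finger clusters, calls were spread over several short role lists. For scale, 19.1% of all tested members were called without UVB and 17.3% after it, and 1.69% and 0.856% of all tested genes. Of 15 tested genes of a list on mitochondria and metabolism, 2 rose (Clcn6 and Rbp7) and 1 fell (Miip) in each comparison. Of these, Rbp7 binds retinoids, Clcn6 acts in endosomes and is also 1 of the 7 tested genes of trafficking and organelles, and Miip is known for inhibiting cell migration. Of 10 tested genes of cell death, DNA repair and ubiquitin 1 fell in each comparison (Fbxo44). Among 9 tested genes of matrix, junction and secreted proteins, Masp2 rose in both comparisons and Plod1 fell without UVB. None of 11 tested genes of transcription, chromatin and RNA was called by edgeR, with 2 and 1 at an unadjusted p under 0.05, while DESeq2 called 0 and 1 and limma voom 1 and 1.

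Members often studied in skin and signalling gave small values. Mtor, the kinase that controls growth, gave -0.06 ± 0.09 without UVB and -0.17 ± 0.09 after it, and Casp9, the initiator caspase of the mitochondrial pathway, -0.05 ± 0.08 and -0.0035 ± 0.08. Epha2, an ephrin receptor, gave 0.15 ± 0.18 and -0.01 ± 0.18. Mfn2, which encodes a mitochondrial fusion protein and also starts at 2.66 Mb, gave -0.04 ± 0.09 without UVB and -0.30 ± 0.09 after it (edgeR adjusted p = 0.13). Limma voom called the latter (adjusted p = 0.0393).

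Between UVB and control, members were called at shares near those of all genes. In WT 22 of 110 members were called (17 higher, 5 lower; 20%, against 18.8% of all genes, 10.2% higher and 8.6% lower), and in KO 29 (18 higher, 11 lower; 26.4%, against 32.3%, 17.2% higher and 15.1% lower). The count in WT fell to 13 without WT UVB 2 or without WT UVB 3. With each library's score of hair follicle growth markers in the model, described further on, edgeR called 0 members in WT and 1 in KO, beside 1 and 256 of all genes. That score did not overlap between UVB and control libraries in either genotype, so this fit cannot tell the score and treatment apart. In both genotypes 11 members were called in the same direction, 10 of them higher. The matching share of all genes is not given here, so this count has no scale beside it. Ctnnbip1, an inhibitor of the binding of beta-catenin to TCF factors, rose with UVB in both genotypes. It stood at 41.2, 44.6, 50.6 and 45.2 CPM in WT control and 109, 126, 138 and 113 CPM in WT UVB, and at 46.4, 42.0, 40.04 and 55.4 CPM in KO control and 144, 106, 92.7 and 90.3 CPM in KO UVB. UVB and control libraries did not overlap in either genotype (1.42 ± 0.14, edgeR adjusted p = 1.53e-05 in WT, and 1.24 ± 0.14, edgeR adjusted p = 3.97e-05 in KO).

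No member's UVB response was called as different between genotypes by edgeR, beside 4 of 17531 genes (0.0228%). The lowest adjusted p among members was 0.211, and 17 members had an unadjusted p under 0.05. DESeq2 called 0 members and limma voom 2, and the numbers of all genes they called are not given here.

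Marker lists of other skin cells also moved with genotype. Of 9 tested markers of growing (anagen) hair follicles, 6 were lower in KO without UVB, and their summed level was 591 to 1588 CPM in WT control and 41.3 to 149 CPM in KO control. After UVB none was called by edgeR between genotypes, and the sums were 7.75 to 93.4 CPM in WT and 6.22 to 11.6 CPM in KO. With each library's anagen marker score in the model, 5 of the 21 calls without UVB remained (Aadacl4, Gm436, Zfp990, Zfp984 and Masp2) and none of the 21 changed direction. Without UVB the score ran from 1.02 to 1.63 in WT and from -0.0426 to 0.386 in KO. This fit therefore cannot tell the score and genotype apart. For the 16 calls that were lost, the log2 fold change with the score was 0.607 to 1.48 times that without it (median 0.955), and the adjusted p 0.241 to 0.998. The same term left 8 calls among all 17531 genes without UVB. After UVB 14 members were called with it, beside 57 of all genes. Of 6 melanocyte markers 1 was called, lower in KO after UVB, and their sums did not overlap between genotypes in either setting: 50.04 to 89.5 CPM in WT control and 33.5 to 48.6 CPM in KO control, and 62.4 to 81.8 CPM in WT UVB and 33.8 to 45.0 CPM in KO UVB. For Schwann cells 1 of 5 markers was lower without UVB (sums 494 to 629 CPM in WT and 332 to 487 CPM in KO), and 1 of 5 erythrocyte markers was higher after it (58.2 to 159 CPM and 71.7 to 167 CPM). In the other 9 marker lists edgeR called none between genotypes, and no marker on any list was at 0 in every library. Apart from the fit with the anagen score, the part of these cell types in the members' differences was not tested. In whole skin, fewer cells of a type and less RNA per cell cannot be told apart.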

How the data were processed

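Poly(A) RNA of 16 mouse dorsal skin libraries (4 groups of 4, grouped by title, genotype and treatment labels) was analysed from the deposited gene counts. Per the submitters' processing notes the authors used STAR and build GRCm39, with no tool version or gene annotation named in the sources used here. Each library's table of counts was deposited without normalization, and the column for reverse-strand reads was used (95.7% of stranded reads). A combined table with 17 columns that could not be mapped to samples was not used. The table lines for unmapped (10.7% to 19.5% of reads), multimapping, unassigned and ambiguous reads stayed out of library sizes.

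Gene symbols, types and positions came from GENCODE (GRCm38) by Ensembl ID for 52083 of 55359 IDs; 334 annotated genes lay in the window, 322 of them in the tables, of which 7 were left out by name. Genes passed edgeR's expression filter (about 0.473 CPM in 4 libraries, 17531 genes). One edgeR 4.0.16 quasi-likelihood model of the 4 groups (TMM, robust, R 4.3.3) gave 5 contrasts, tested two-sided with Benjamini-Hochberg adjustment over all tested genes and called at 0.05. Printed CPM are counts divided by the TMM-scaled library size. Alternatives used DESeq2 1.42.0, limma 3.58.1 voom, other filters, scalings, windows and left-out libraries. The models were tested on simulated data.

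Members and lists were chosen with earlier results of these data known. Named genes were the called members with the largest changes at a mean count of at least 50, the 3 nearest tested genes on each side, called members of the role lists, 15 well-known genes and those at the window's edges; others are marked where named, and some named by this rule are not reported here.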

Additional observations from a re-analysis of the deposited data

Results flagged for a closer look

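In the KO UVB group, Gm436 stood at 94.1 CPM in KO UVB 1 and between 64.1 and 68.8 CPM in the other 3 libraries, a gap large against the group's range. Zfp990 was at 0.0485 CPM (1 read) in WT UVB 3 and at 0 in the other 3 WT UVB libraries. These were 2 of 76 groups of 4 libraries checked over 19 genes, and chance alone marks about 1 in 20 such groups.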

How the results depend on the processing

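The counts of 21 members called without UVB, 19 after UVB and 17 in both moved by over 1.5 times under few of the alternatives. DESeq2 called 29 members after UVB, and limma voom 33, with 2 for the interaction. The numbers of all genes called by these tools are not given here. Among the 155 tested genes near Tnfrsf1a, they called 1 and 8 after UVB, where edgeR called 0. A mean count of at least 100 (72 members tested) left 9, 9 and 9 in both; a 2 Mb window (25 tested) left 9, 8 and 8 in both. With the anagen marker score as a covariate, added after seeing the data, 5 were called without UVB and 5 in both. For UVB against control, 22 members in WT and 29 in KO became 18 in KO with only the compared groups in the fit, 7 and 9 in the 2 Mb window, 45 and 74 in a 10 Mb window, 9 and 15 at an adjusted p under 0.01, 13 and 15 with at least 1.5-fold, and 0 and 1 with the anagen score. Leaving out each replicate in turn gave 17 to 22 without UVB, 15 to 25 after UVB, 15 to 18 in both, 13 to 23 for UVB in WT, 20 to 33 for UVB in KO and 0 to 0 for the interaction; each of the 40 calls on named members kept its direction and 32 of them stayed called in all 16 such fits. Replicate numbers did not pair the libraries (correlations of same-numbered deviations -0.403 to 0.219, and 1, 0, 1 and 0 of 4 libraries closest to their own number in the 4 pairs of groups); a fit with a replicate block called 18, 15, 15 in both, 17, 27 and 0. Without WT UVB 2 and KO UVB 4 together, also added later, the counts were 20, 17 and 16 in both. Over the 24 to 26 alternatives that gave a value for each of them, 17 of the 40 calls were kept, 23 were lost in some, and none reversed. Genes under about 10 reads per library, such as Zfp985, carry wide counting error.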

Other observations

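Beyond the 5 Mb window, 6 further chromosome 4 genes were called in the same direction in both genotype comparisons, and 5 of them are given here, named after their values were seen. A430005L14Rik at 8.74 Mb (0.71 ± 0.14 and 1.15 ± 0.14) and Dffb at 8.75 Mb (0.82 ± 0.18 and 1.02 ± 0.18), the nuclease of apoptotic DNA fragmentation, were higher in KO (log2 fold changes without and after UVB). At 10.2 Mb 5830444B04Rik was lower in KO (-2.38 ± 0.39 and -2.76 ± 0.42). On the lower side, Trnp1 at -11.7 Mb (-0.96 ± 0.14 and -0.89 ± 0.14) and Hmgn2 at -11.2 Mb (-0.50 ± 0.08 and -0.74 ± 0.08) were lower. With Tnfrsf1b, that made 7 of the 952 tested chromosome 4 genes that are no members, and chromosome 8 had the next largest number, 5 of 903.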
